A study of Homo sapiens with 3 samples.

Results

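The phospholipase families were 52 genes of the 2978 targeted by a pooled CRISPR knockout library of metabolic genes. Members were taken by gene symbol: all genes of the PLA2G, PLCB, PLCD, PLCE, PLCG, PLCH, PLCZ, PLD, PNPLA and LYPLA series, and PLB1. They carried 520 of the 29698 guides against genes. The cells were of the pancreatic ductal adenocarcinoma line MIA PaCa-2, selected with puromycin after lentiviral delivery of the library. One library was sequenced from each of 3 groups: cells grown for 14 days in apilimod, which blocks the lipid kinase PIKfyve, cells grown for 14 days in the solvent DMSO, and the initial population at day 0. All groups came from 1 transduced and selected pool. The study's methods describe several flasks and do not say how their cells were combined at harvest. The labels give the apilimod concentration as 200 nM, whereas the study's methods state a lower one, so the concentration is uncertain here.

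Phospholipases cut the phospholipids of membranes, and the families differ in which bond they cut. Phospholipase A enzymes release a fatty acid and leave a lysophospholipid, phospholipase C enzymes split phosphatidylinositol 4,5-bisphosphate into diacylglycerol and inositol trisphosphate, and classical phospholipase D enzymes release phosphatidic acid. PIKfyve acts on another phosphoinositide, phosphatidylinositol 3-phosphate, on endosomes and lysosomes, where some of the listed enzymes also reside. The question put to the members was whether loss of any of them changed the growth of the cells, and whether this differed with apilimod.

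The libraries held 25599416 counts with apilimod, 26276517 with DMSO and 24695476 in the initial population. Guides against the phospholipase genes took 1.47% of the counts with apilimod (95% Wilson interval 1.466 to 1.476), 1.47% with DMSO (1.468 to 1.477) and 1.41% in the initial population (1.407 to 1.416). The guides carried no molecular identifiers, so intervals cover counting error only. A guide's change is the log2 of its share of the library (count plus 1) at day 14 over that at day 0, and a gene's score is the mean change of its guides, given below with the SD over guides. After guides under 100 initial counts and genes with under 6 remaining guides were left out, 51 phospholipase genes with 481 guides were scored, among 2969 genes with 28042 guides in all. The guides of a gene were compared with those of 487 intergenic controls in a two-sided rank-sum test, computed exactly, and calls were made at 0.05 after Benjamini-Hochberg adjustment over all 2969 genes. Abundances summed over the scored guides of a gene are given as counts and as counts scaled to library size (CPM). There were no replicates, and guides against 1 gene share their target. The tests therefore compare these libraries over guides, not the conditions. Expression of the members in these cells was not measured.

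The control guides themselves had shifted upward, with a median change of 0.22 (SD 0.73) with apilimod and 0.14 (SD 0.40) with DMSO. Guides against the phospholipase genes had medians of -0.03 with apilimod and 0.04 with DMSO, and all guides against genes had medians of -0.03 with apilimod and 0.01 with DMSO. A gene with a score near 0 could thus be called lower. The 20 control guides with at least 100 but under 200 initial counts stood apart with apilimod, at a median of 1.91, against -0.06 with DMSO. The 41 phospholipase guides in that range had medians of 0.29 with apilimod and 0.10 with DMSO. Leaving out the controls under 200 initial counts ended 2 of the 26 calls made on phospholipase genes over the 3 comparisons, and leaving out all guides under 300 initial counts ended 6 of the 25 that could still be scored.

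After 14 days with apilimod, 17 of the 51 phospholipase genes were called lower than in the initial population and 0 were called higher. This was 33.3% of the members, beside 29.0% of all genes scored. None was called higher, beside 0.236% of all genes; at an unadjusted p under 0.05 by the same exact test, 22 members were lower (43.1%, beside 39.3% of all genes) and 1 was higher (1.96%, beside 0.876%). After 14 days with DMSO, 7 members were called lower (13.7%, beside 18.9% of all genes) and 1 was called higher (1.96%, beside 0.842%). At an unadjusted p under 0.05 by the exact test, 10 members were lower with DMSO (19.6%, beside 27.3% of all genes) and 1 was higher (1.96%, beside 2.43%). The shares lower thus stood near those of the library in both arms. The median score of the members was -0.02 with apilimod, beside -0.04 for all genes, and -0.01 with DMSO, beside -0.03. Most calls did not hold when all guides against genes served as the null in place of the control guides. In that exact test 1 member (PLA2G4E) was called lower with apilimod, beside 7.58% of all genes, and 2 (PLCB4 and PLCH1) were called higher, beside 2.76%. With DMSO 0 members were called lower, beside 7.48%, and 1 (PLCH1) was called higher, beside 1.68%; at an unadjusted p under 0.05, 3 members were lower (5.88%, beside 11.6% of all genes) and 5 higher (9.80%, beside 7.92%).

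Strong depletion was uncommon. A score below -1 was reached by 1 of the 51 members with apilimod, PLCH2, and by 0 of the 51 with DMSO. Of the 2969 genes scored in all, 210 did so with apilimod and 170 with DMSO. With so few members this difference from the library was not tested. Of the 481 member guides, 9 guides in 7 genes (1.87%) had a change below -2 with apilimod, compared with 3.80% of all guides against genes. With DMSO, 5 member guides in 4 genes (1.04%) did so, compared with 3.02% of all guides against genes.

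The members called lower in both arms were 6: PLA2G4E, PLA2G6, PLA2G15, PNPLA6, PLCG1 and PLCH2. A further 11 were called lower with apilimod and not with DMSO, 1 (PLCG2) was called lower with DMSO and not with apilimod, and 32 were called in neither arm. As shares, 11.8% of the members were lower in both arms, beside 15.2% of all genes, 21.6% with apilimod and not with DMSO, beside 13.8%, 1.96% with DMSO and not with apilimod, beside 3.64%, and 62.7% were called in neither arm, beside 66.4%. These lists do not show that the arms differ, since the same initial population served both. No member called lower in either arm passed the test of the difference between the arms, described further on.

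**Figure D1:**
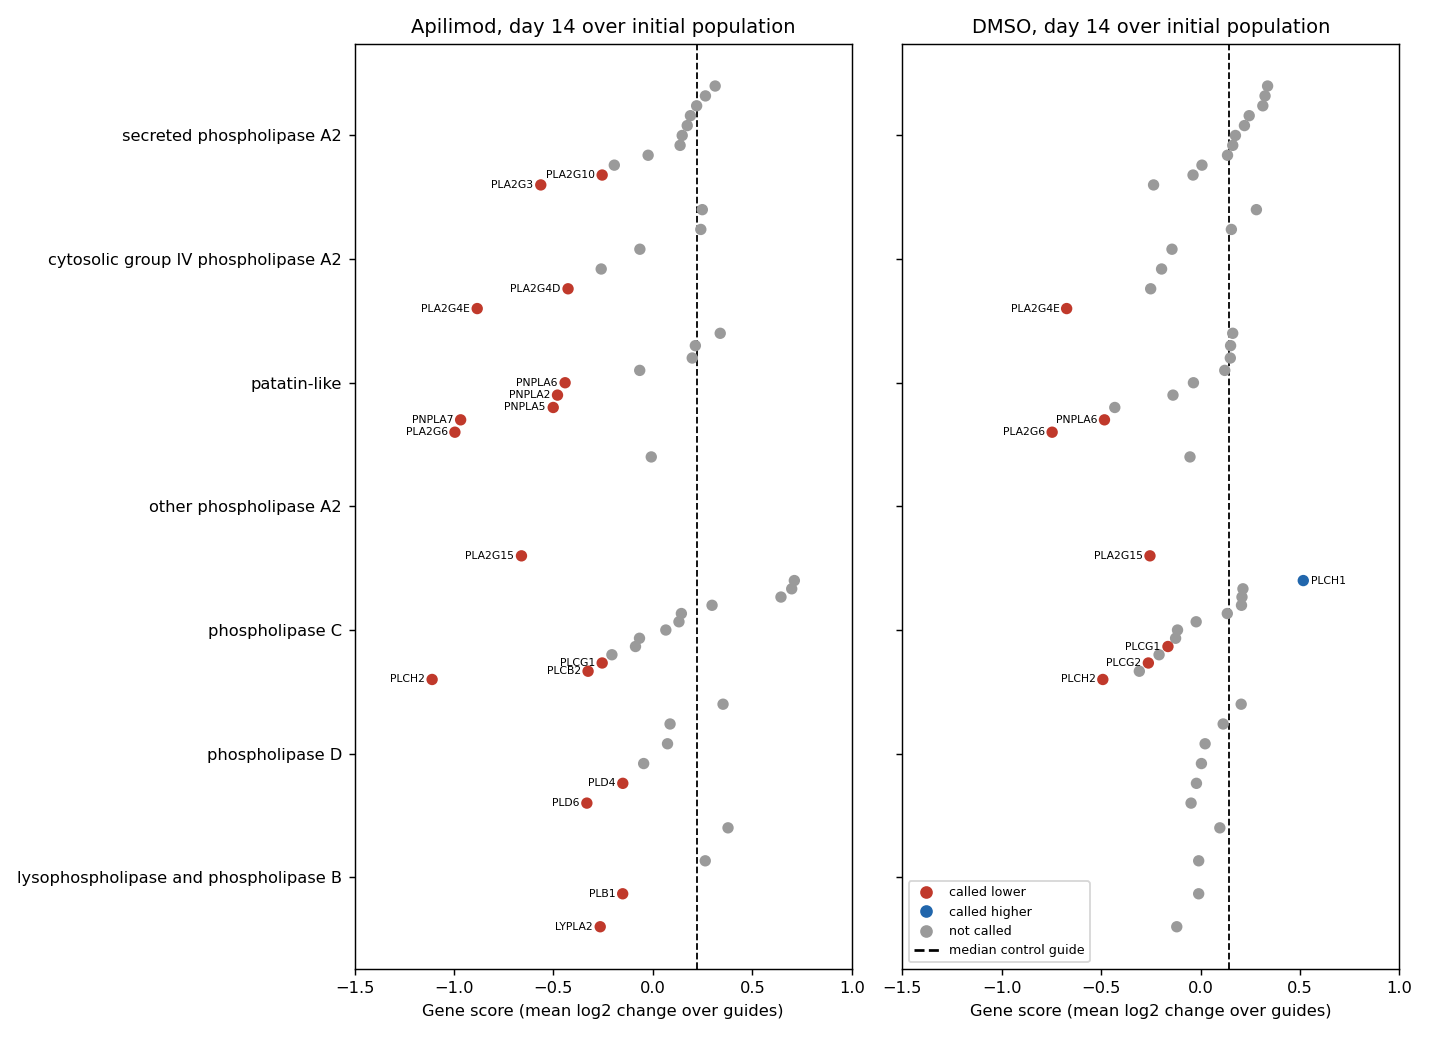
Gene scores (mean log2 change over guides) of the 51 scored phospholipase genes by subfamily, with apilimod on the left and DMSO on the right, both over the initial population. Red points were called lower and blue points higher, and the dashed line is the median control guide, at 0.22 with apilimod and 0.14 with DMSO. The patatin-like genes hold 5 of the 17 genes called lower with apilimod, and most secreted enzymes lie between 0 and 0.4 in both arms.

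The cytosolic group IV enzymes hydrolyse intracellular phospholipids, and the best known, PLA2G4A, releases arachidonic acid for eicosanoid synthesis. Of these 6 genes, 2 were called lower with apilimod (33.3%, beside 29.0% of all genes) and 1 with DMSO (16.7%, beside 18.9%). PLA2G4E, which in addition transfers acyl chains to phosphatidylethanolamine, had the lowest adjusted p of all members with apilimod. Its guides summed to 3757 counts (147 CPM) with apilimod, 4426 (168 CPM) with DMSO and 6121 (248 CPM) in the initial population. Both 14-day libraries lay well below the starting pool, and no single guide carried the change. The 9 guides ranged from -2.10 to 0.33 with apilimod (median -0.76) and from -1.65 to 0.48 with DMSO (median -0.79). PLA2G4E scored -0.88 ± 0.70 with apilimod (exact rank-sum, adjusted p = 2.8e-05) and -0.67 ± 0.75 with DMSO (exact rank-sum, adjusted p = 0.0083). The DMSO call on PLA2G4E was lost under 2 of 7 alternative settings.

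PLA2G4D, a relative with roles described in skin, had 4647 counts with apilimod, 5360 with DMSO and 5507 in the initial population over its guides. It scored -0.43 ± 0.77 with apilimod (n = 8 guides, exact rank-sum, adjusted p = 0.048), a call at the edge of the threshold, and -0.20 ± 0.75 with DMSO (exact rank-sum, adjusted p = 0.43). The call on PLA2G4D was lost under 5 of 7 alternative settings. PLA2G4A scored 0.24 ± 0.35 with apilimod and 0.15 ± 0.61 with DMSO (n = 9 guides), and the 4 group IV genes not called ranged from -0.26 to 0.25 with apilimod. PLA2G4B, PLA2G4E, PLA2G4D and PLA2G4F lie within 318 kb (chr15:41838847-42156636, GRCh38.p14). Their scores spread from -0.88 to -0.07 with apilimod and from -0.67 to -0.14 with DMSO; differences among the 4 genes were not tested.

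The patatin-like enzymes include PLA2G6, a calcium-independent phospholipase A2, and the PNPLA lipases and lysophospholipases. This subfamily had 5 of 9 genes called lower with apilimod (55.6%, beside 29.0% of all genes) and 2 of 9 with DMSO (22.2%, beside 18.9%), with median scores of -0.44 with apilimod and -0.04 with DMSO. The guides against PLA2G6 summed to 4644 counts (181 CPM) with apilimod, 5121 (195 CPM) with DMSO and 5878 (238 CPM) in the initial population. In each arm 9 of the 10 guides lay below the median control guide. The gene scored -0.995 ± 1.44 with apilimod (exact rank-sum, adjusted p = 0.00026) and -0.75 ± 1.08 with DMSO (exact rank-sum, adjusted p = 0.0013). One guide was far below the rest, with 10 counts with apilimod, 31 with DMSO and 290 in the initial population. Without it the score was -0.58 ± 0.58 with apilimod and -0.47 ± 0.65 with DMSO (n = 9 guides), and both calls on PLA2G6 held.

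PNPLA6, known as neuropathy target esterase, and its close relative PNPLA7 hydrolyse lysophosphatidylcholine at the endoplasmic reticulum. PNPLA6 had 5718 counts (223 CPM) with apilimod, 5877 (224 CPM) with DMSO and 6605 (267 CPM) in the initial population. The arms were equal within 1 CPM, and both lay below the starting pool. It scored -0.44 ± 0.98 with apilimod, with 8 of 10 guides below the median control (exact rank-sum, adjusted p = 0.026), and -0.48 ± 0.62 with DMSO, with 10 of 10 below (exact rank-sum, adjusted p = 0.00092). The apilimod call on PNPLA6 was lost under 3 of 7 alternative settings, among them leaving out the guide farthest from the gene's median.

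PNPLA7 had 3843 counts (150 CPM) with apilimod, 4264 (162 CPM) with DMSO and 5069 (205 CPM) in the initial population. The gene scored -0.97 ± 1.52 with apilimod (n = 10 guides, exact rank-sum, adjusted p = 0.00069) and -0.43 ± 0.86 with DMSO (exact rank-sum, adjusted p = 0.073). A single guide, at 5 counts with apilimod, 33 with DMSO and 151 in the initial population, pulled both means down. Without it the scores were -0.55 ± 0.81 with apilimod and -0.23 ± 0.61 with DMSO, and PNPLA7 was still called lower with apilimod.

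PNPLA2, adipose triglyceride lipase, and PNPLA5, a lipid droplet lipase, act mainly on triglyceride. PNPLA2 had 3562 counts (139 CPM) with apilimod, 4639 (177 CPM) with DMSO and 4348 (176 CPM) in the initial population. The DMSO library matched the starting pool and the apilimod library was below both. It scored -0.48 ± 0.57 with apilimod (n = 10 guides, exact rank-sum, adjusted p = 0.0017) and -0.04 ± 0.35 with DMSO (exact rank-sum, adjusted p = 0.37). PNPLA5 also had its lowest abundance with apilimod, at 3627 counts (142 CPM), beside 4545 (173 CPM) with DMSO and 4345 (176 CPM) in the initial population, and scored -0.50 ± 0.62 with apilimod (n = 8 guides, exact rank-sum, adjusted p = 0.0068) and -0.14 ± 0.48 with DMSO (exact rank-sum, adjusted p = 0.20). The direct differences between the arms did not pass the test for either gene. The remaining patatin-like genes, PNPLA1, PNPLA3, PNPLA4 and PNPLA8, scored -0.07 to 0.34 with apilimod and 0.12 to 0.16 with DMSO, and none was called.

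PLA2G15 is the phospholipase A2 of the lysosome, a compartment on which PIKfyve acts. Its guides summed to 5135 counts (201 CPM) with apilimod, 6241 (238 CPM) with DMSO and 7137 (289 CPM) in the initial population. The apilimod library was the lowest and the initial population the highest, with DMSO between them. The 9 guides ranged from -1.54 to 0.47 with apilimod (median -0.80) and from -0.88 to 0.44 with DMSO (median -0.37). PLA2G15 scored -0.66 ± 0.67 with apilimod (exact rank-sum, adjusted p = 0.00071) and -0.25 ± 0.40 with DMSO (exact rank-sum, adjusted p = 0.031). The DMSO call on PLA2G15 was lost under 2 of 7 alternative settings and the apilimod call under 1 of 7. The difference between the arms, -0.41 ± 0.85, did not pass the test (exact rank-sum, adjusted p = 0.50), although 7 of the 9 scaled guide differences lay below the median control.

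PLA2G16, an adipose enzyme now named PLAAT3, had 11279 counts with apilimod, 12015 with DMSO and 11052 in the initial population, and scored -0.01 ± 0.29 with apilimod and -0.05 ± 0.50 with DMSO (n = 10 guides). PLA2G7, the platelet-activating factor acetylhydrolase of plasma, could not be scored, since 5 of its 10 guides were under 100 initial counts. All 10 guides together summed to 4938 counts (193 CPM) with apilimod, 3459 (132 CPM) with DMSO and 2685 (109 CPM) in the initial population. All 10 guides had a larger share of the library with apilimod than in the initial population, and 9 of 10 had a larger share with apilimod than with DMSO. With the minimum lowered to 3 guides, its 5 remaining guides scored 0.98 ± 0.87 with apilimod (exact rank-sum, adjusted p = 0.18) and 0.23 ± 0.35 with DMSO (exact rank-sum, adjusted p = 0.85), so PLA2G7 was called in neither arm. Control guides of low initial count had also increased with apilimod, though not with DMSO: the 12 control guides under 100 initial counts had a median change of 3.34 with apilimod and -0.34 with DMSO. Their part in the PLA2G7 values was not tested.

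**Figure D2:**
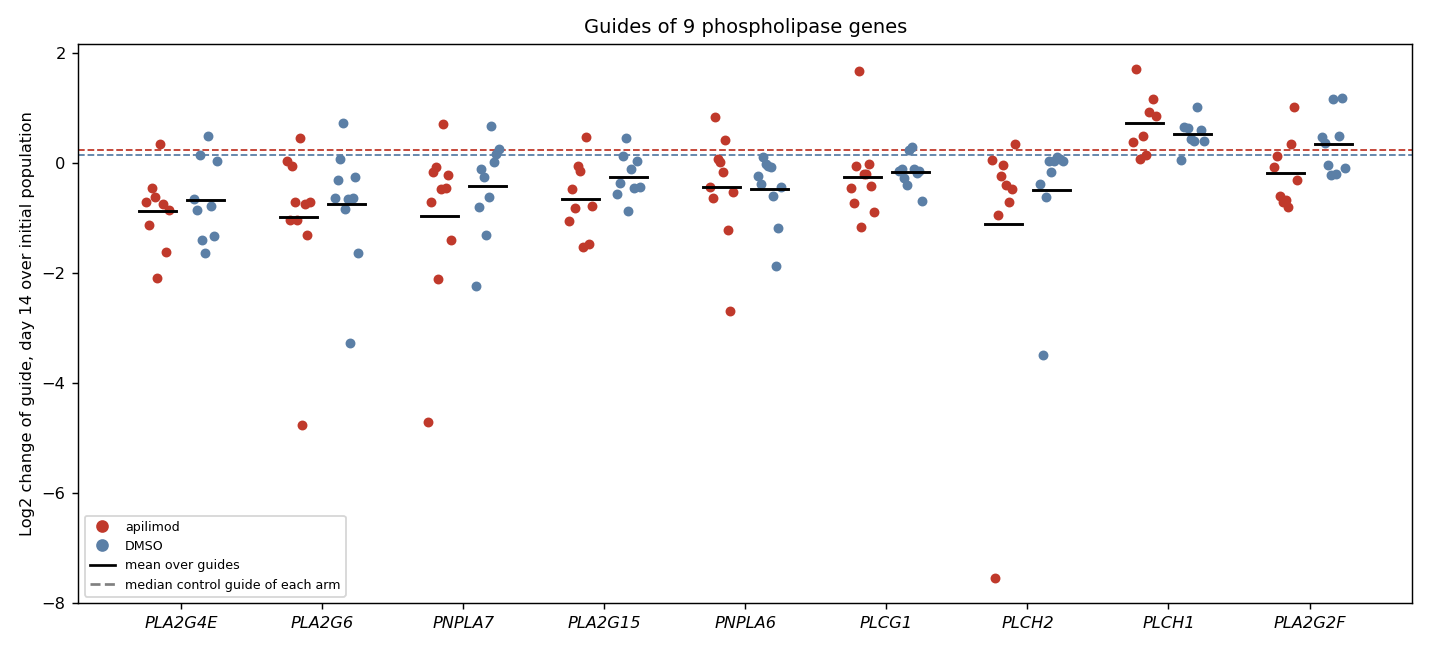
Log2 change of each scored guide over the initial population for 9 phospholipase genes, with apilimod in red and DMSO in blue; black bars are means over guides and dashed lines the median control guide of each arm. Single guides of PLA2G6, PNPLA7 and PLCH2 lie below -4 with apilimod, whereas the lowest guide there is at -2.10 for PLA2G4E and at -1.54 for PLA2G15.

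Secreted phospholipase A2 enzymes act mainly outside the cell, on lipoproteins, dietary lipids or the membranes of other cells and bacteria. Of these 11 genes, 2 were called lower with apilimod (18.2%, beside 29.0% of all genes) and 0 with DMSO (beside 18.9%). The median score of the secreted enzymes was 0.15 with apilimod and 0.18 with DMSO, near the median control guide in both arms.

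PLA2G3 had 5929 counts (232 CPM) with apilimod, 7492 (285 CPM) with DMSO and 7266 (294 CPM) in the initial population. The apilimod library was the lowest of the 3. It scored -0.56 ± 1.06 with apilimod (n = 10 guides, exact rank-sum, adjusted p = 0.010) and -0.04 ± 0.68 with DMSO (exact rank-sum, adjusted p = 0.74). PLA2G10, which acts strongly on phosphatidylcholine, scored -0.26 ± 0.58 with apilimod (n = 10 guides, exact rank-sum, adjusted p = 0.033) and -0.24 ± 0.63 with DMSO (exact rank-sum, adjusted p = 0.19). Its summed counts of 7415 (290 CPM) with apilimod, 8082 (308 CPM) with DMSO and 7462 (302 CPM) in the initial population differed little, and the PLA2G10 call was lost under 3 of 7 alternative settings.

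PLA2G1B, the digestive enzyme of the exocrine pancreas, had 7981 counts with apilimod, 9012 with DMSO and 6958 in the initial population. It was among the 3 highest members with DMSO at 0.32 ± 0.40, against 0.19 ± 0.60 with apilimod (n = 10 guides), and was called in neither arm. The 6 secreted enzymes PLA2G2E, PLA2G2A, PLA2G5, PLA2G2D, PLA2G2F and PLA2G2C, lie within 267 kb (chr1:19920009-20186518, GRCh38.p14). Their scores ran from -0.19 to 0.26 with apilimod and from 0.01 to 0.34 with DMSO, and 0 of them were called in either arm.

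The phosphoinositide-specific phospholipase C enzymes had 3 of 13 genes called lower with apilimod (23.1%, beside 29.0% of all genes) and 3 of 13 with DMSO (23.1%, beside 18.9%), and held the 1 member called higher with DMSO. PLCH2, an isoform best known from neurons, had 5657 counts (221 CPM) with apilimod, 7376 (281 CPM) with DMSO and 7212 (292 CPM) in the initial population. Its score was the lowest of all members with apilimod, at -1.11 ± 2.44 (n = 9 guides, exact rank-sum, adjusted p = 0.0028), and -0.49 ± 1.15 with DMSO (exact rank-sum, adjusted p = 0.042). Most of that size came from 1 guide, with 0 counts with apilimod, 16 with DMSO and 179 in the initial population.

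Against a floor of 3 counts in that library, this PLCH2 guide was at least 61.9-fold lower with apilimod than in the initial population, and at least 5.20-fold lower than with DMSO. With the guide at the floor the apilimod score of PLCH2 was -0.93, and without the guide the scores were -0.31 ± 0.42 with apilimod and -0.12 ± 0.26 with DMSO (n = 8 guides). The apilimod call held without it and the DMSO call did not. The call on PLCH2 with DMSO was lost under 4 of 7 alternative settings, and the median of its guides there was 0.02.

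PLCH1, the other eta isoform, moved the opposite way. It had 9661 counts (377 CPM) with apilimod, 8701 (331 CPM) with DMSO and 5724 (232 CPM) in the initial population. Both 14-day libraries were above the starting pool, and each of the 8 scored guides had increased in both arms, by 0.06 to 1.69 with apilimod and by 0.04 to 1.02 with DMSO. Since the control guides had also shifted upward, 6 of the 8 lay above the median control with apilimod and 7 of the 8 with DMSO. The score was 0.71 ± 0.55 with apilimod, where PLCH1 was not called (exact rank-sum, adjusted p = 0.10), and 0.52 ± 0.28 with DMSO, where it was called higher (exact rank-sum, adjusted p = 0.021). In rank from the lowest score it stood at 2951 of 2969 genes with apilimod and 2953 with DMSO. The DMSO call was lost when the initial minimum was set to 30 counts and when the gene's farthest guide was left out. Against all guides targeting genes as the null, PLCH1 was called higher in both arms.

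PLCG1 and PLCG2 are the isoforms that receptor and immune tyrosine kinases switch on. PLCG1 had 5586 counts (218 CPM) with apilimod, 6306 (240 CPM) with DMSO and 6595 (267 CPM) in the initial population. It scored -0.26 ± 0.77 with apilimod, with 9 of 10 guides below the median control (exact rank-sum, adjusted p = 0.0048), and -0.16 ± 0.28 with DMSO, with 8 of 10 below (exact rank-sum, adjusted p = 0.034). The DMSO call on PLCG1 was lost under 2 of 7 alternative settings, among them leaving out the guide farthest from the gene's median. One guide went against the others with apilimod at 1.66, with 720 counts there, 175 with DMSO and 219 in the initial population, and without it the PLCG1 scores were -0.47 ± 0.40 with apilimod and -0.14 ± 0.29 with DMSO.

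PLCG2 had 6902 counts (270 CPM) with apilimod, 6238 (237 CPM) with DMSO and 6995 (283 CPM) in the initial population. It was called lower with DMSO alone, at -0.26 ± 0.27 with 9 of 9 guides below the median control (exact rank-sum, adjusted p = 0.0041). With apilimod it scored -0.09 ± 0.40 (exact rank-sum, adjusted p = 0.093). The difference between the arms for PLCG2, 0.17 ± 0.39, did not pass the test (exact rank-sum, adjusted p = 0.71).

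The beta isoforms are activated by heterotrimeric G proteins. PLCB2, mainly of blood cells, had 5653 counts (221 CPM) with apilimod, 5987 (228 CPM) with DMSO and 6585 (267 CPM) in the initial population, and scored -0.33 ± 0.36 with apilimod with 9 of 9 guides below the median control (exact rank-sum, adjusted p = 0.0020). With DMSO it had nearly the same score, -0.31 ± 0.59, without a call (exact rank-sum, adjusted p = 0.063). PLCB3, the widely expressed isoform, was called in neither arm, with 7133 counts with apilimod, 9084 with DMSO and 7004 in the initial population and scores of 0.13 ± 0.49 with apilimod and 0.21 ± 0.44 with DMSO (n = 10 guides).

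PLCB4, of the retina and brain, and PLCZ1, the sperm factor that starts calcium release in the egg, were the members next to PLCH1 at the high end with apilimod. PLCB4 had 8643 counts (338 CPM) with apilimod, 7047 (268 CPM) with DMSO and 5605 (227 CPM) in the initial population, and scored 0.70 ± 0.76 with apilimod and 0.21 ± 0.46 with DMSO (n = 10 guides). PLCZ1 had 5872 counts (229 CPM) with apilimod, 4647 (177 CPM) with DMSO and 3867 (157 CPM) in the initial population, and scored 0.64 ± 0.81 with apilimod and 0.13 ± 0.33 with DMSO (n = 9 guides). Neither was called against the control guides, and in each the highest guide started below 200 counts: that guide of PLCB4 had 734 counts with apilimod, 153 with DMSO and 167 in the initial population, and that guide of PLCZ1 had 752 counts with apilimod, 120 with DMSO and 158 in the initial population.

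PLCE1, a Ras-regulated isoform chosen here after its values were seen, had a larger SD over guides with apilimod than any other member but PLCH2. Its score was -0.21 ± 1.96 with apilimod and -0.21 ± 1.49 with DMSO (n = 10 guides), although the median guide was at 0.65 with apilimod and 0.44 with DMSO. A pair of its guides was at -3.38 and -4.15 with apilimod and at -2.75 and -3.12 with DMSO, and the highest guide was at 1.56 with apilimod. PLCE1 was called in neither arm (exact rank-sum, adjusted p = 0.73 with apilimod and 0.56 with DMSO). The delta isoforms PLCD1, PLCD3 and PLCD4 were also not called, with scores of -0.07 to 0.14 with apilimod and -0.13 to -0.02 with DMSO.

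**Figure D3:**
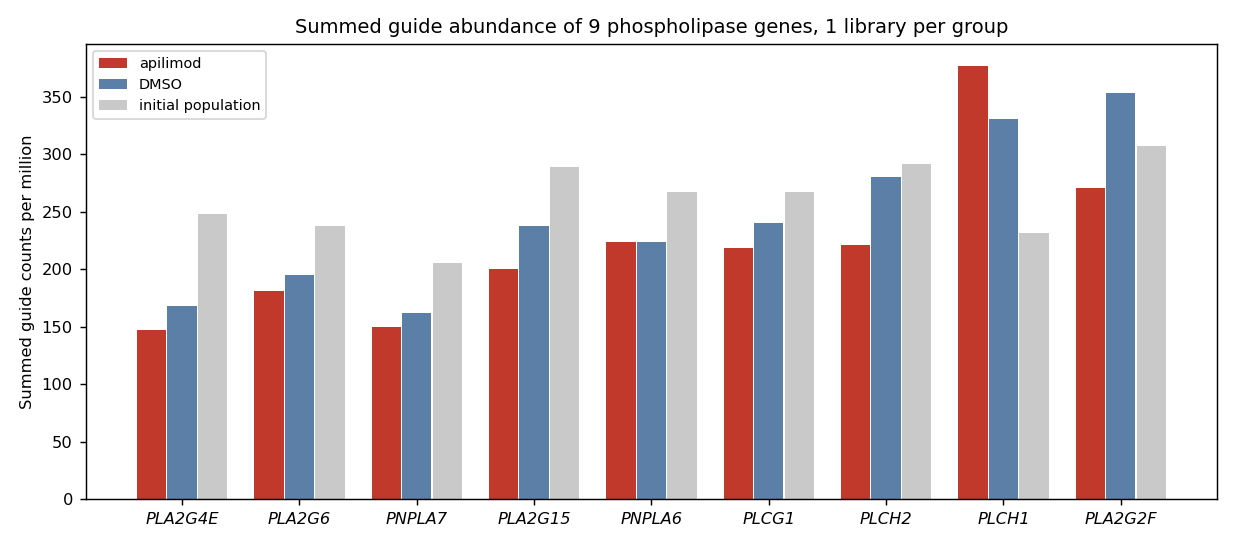
Summed guide counts scaled to library size (CPM) for 9 phospholipase genes, with apilimod, DMSO and the initial population as bars from left to right, 1 library each and therefore without error bars. In that order PLA2G4E stands at 147, 168 and 248 CPM, PLCH1 at 377, 331 and 232 CPM, and PLA2G2F at 271, 354 and 307 CPM.

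Phospholipase D genes had 2 of 6 members called lower with apilimod (33.3%, beside 29.0% of all genes) and 0 with DMSO (beside 18.9%), with median scores of 0.01 in both arms. PLD6, a mitochondrial outer membrane enzyme, had 6954 counts (272 CPM) with apilimod, 7789 (296 CPM) with DMSO and 7729 (313 CPM) in the initial population. It scored -0.33 ± 0.65 with apilimod (n = 10 guides, exact rank-sum, adjusted p = 0.018) and -0.02 ± 0.58 with DMSO (exact rank-sum, adjusted p = 0.32). PLD3 and PLD4 are endolysosomal proteins that degrade single-stranded nucleic acids. PLD4 had 6141 counts (240 CPM) with apilimod, 7033 (268 CPM) with DMSO and 6259 (253 CPM) in the initial population, and was called lower with apilimod at a score of only -0.15 ± 0.33 (n = 9 guides, exact rank-sum, adjusted p = 0.028), beside 0.00 ± 0.29 with DMSO.

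The calls on PLD6 and PLD4 were both lost without the guide farthest from the gene's median. PLD3 had 6530 counts (255 CPM) with apilimod, 6521 (248 CPM) with DMSO and 5766 (233 CPM) in the initial population, and scored 0.07 ± 0.67 with apilimod and 0.11 ± 0.50 with DMSO (n = 8 guides). PLD3 was called in neither arm. PLD1 and PLD2, which make phosphatidic acid from phosphatidylcholine, were not called. PLD1 scored 0.35 ± 0.41 with apilimod and 0.20 ± 0.33 with DMSO, and PLD2 scored -0.05 ± 0.58 with apilimod and -0.05 ± 0.50 with DMSO.

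The lysophospholipases and phospholipase B had 2 of 4 genes called lower with apilimod (50.0%, beside 29.0% of all genes) and 0 with DMSO (beside 18.9%). LYPLA1 and LYPLA2 are known mainly as acyl protein thioesterases, which remove palmitate from proteins. LYPLA2 had 10946 counts (428 CPM) with apilimod, 10996 (418 CPM) with DMSO and 10871 (440 CPM) in the initial population. It was called lower with apilimod at -0.26 ± 0.55 (n = 10 guides, exact rank-sum, adjusted p = 0.020), and scored -0.12 ± 0.47 with DMSO (exact rank-sum, adjusted p = 0.34). LYPLA1 had 11505 counts (449 CPM) with apilimod, 9933 (378 CPM) with DMSO and 8769 (355 CPM) in the initial population, and scored 0.38 ± 0.25 with apilimod and -0.01 ± 0.45 with DMSO (n = 9 guides), without a call.

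PLB1, the brush border phospholipase B, had 6743 counts (263 CPM) with apilimod, 8367 (318 CPM) with DMSO and 7039 (285 CPM) in the initial population. It was called lower with apilimod at -0.15 ± 0.29, with 8 of 9 guides below the median control (exact rank-sum, adjusted p = 0.023), and scored -0.01 ± 0.51 with DMSO. The calls on LYPLA2 and PLB1 were both lost without the farthest guide, and the PLB1 call was lost under 3 of 7 alternative settings. LYPLAL1 was not called, at 0.26 ± 0.54 with apilimod and 0.10 ± 0.39 with DMSO (n = 10 guides).

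The arms were then compared with each other. To allow for a difference in overall selection, each arm was scaled so that the median control guide was at 0 and the median score of 27 nucleotide synthesis genes at -1, and the scaled difference of each guide was tested against the control guides. The nucleotide synthesis genes were themselves not equal in the arms: CAD and DHODH, of pyrimidine synthesis, were among the 6 genes of the library called higher with apilimod than with DMSO, and the list had a median z of 0.77. Without scaling PLA2G2F was still called, and with scaling by N-glycosylation genes it was not. The unscaled mean log2 ratio of apilimod over DMSO is printed, with the z of the scaled difference over all genes. Of the 51 members 1 was called lower with apilimod, beside 0.539% of all genes, and 0 were called higher, beside 0.202%; with all guides against genes as the null 0 were called in either direction, beside 0.236% lower and 0.202% higher. With the control guides, at an unadjusted p under 0.05 by the exact test, 4 members were lower (7.84%, beside 7.44% of all genes) and 1 was higher (1.96%, beside 3.00%).

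The gene called was PLA2G2F, a secreted enzyme known from mouse epidermis (chr1:20139323-20150381, GRCh38.p14). Its guides summed to 6930 counts (271 CPM) with apilimod, 9300 (354 CPM) with DMSO and 7586 (307 CPM) in the initial population. Apilimod was the lowest and DMSO the highest of the 3 libraries. All 9 scored guides had a smaller share with apilimod than with DMSO, with log2 ratios from -1.83 to -0.13 and a median of -0.48. The ratio was -0.53 ± 0.52 with z = -2.06 (exact rank-sum, adjusted p = 0.038). The guide at -1.83 had 103 counts with apilimod, 379 with DMSO and 159 in the initial population, and without it the ratio was -0.37 ± 0.20 (n = 8 guides).

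In neither arm was PLA2G2F called against the initial population, with scores of -0.19 ± 0.60 with apilimod (exact rank-sum, adjusted p = 0.051) and 0.34 ± 0.54 with DMSO (exact rank-sum, adjusted p = 0.69). The call on the difference was lost under 5 of 9 alternative settings, with adjusted p from 0.039 to 0.30 over these by the same exact rank-sum test. With a minimum of 300 initial counts, and also without each gene's farthest guide, PLA2G2F was called lower with apilimod against the initial population, while the call on the difference was lost. By z, PLA2G2F ranked 38 from the lowest of 2969 genes.

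Several other members had ratios of like size that did not pass the test. PLCH2 had the lowest ratio of apilimod over DMSO, -0.62 ± 1.35 (exact rank-sum, adjusted p = 0.59), which was -0.19 without the guide at 0 counts. PNPLA7 was at -0.54 ± 0.88 (exact rank-sum, adjusted p = 0.58), PLA2G3 at -0.53 ± 0.79 (exact rank-sum, adjusted p = 0.32) and PNPLA2 at -0.44 ± 0.45, with 9 of 10 scaled differences below the median control (exact rank-sum, adjusted p = 0.23). At the high end were PLCZ1 at 0.51 ± 0.93 (exact rank-sum, adjusted p = 0.69), PLCB4 at 0.48 ± 0.89 (exact rank-sum, adjusted p = 0.77) and LYPLA1 at 0.39 ± 0.56 (exact rank-sum, adjusted p = 0.43). The ratios of the 51 members ranged from -0.62 to 0.51 with a median of -0.02, beside -0.01 for all genes.

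**Figure D4:**
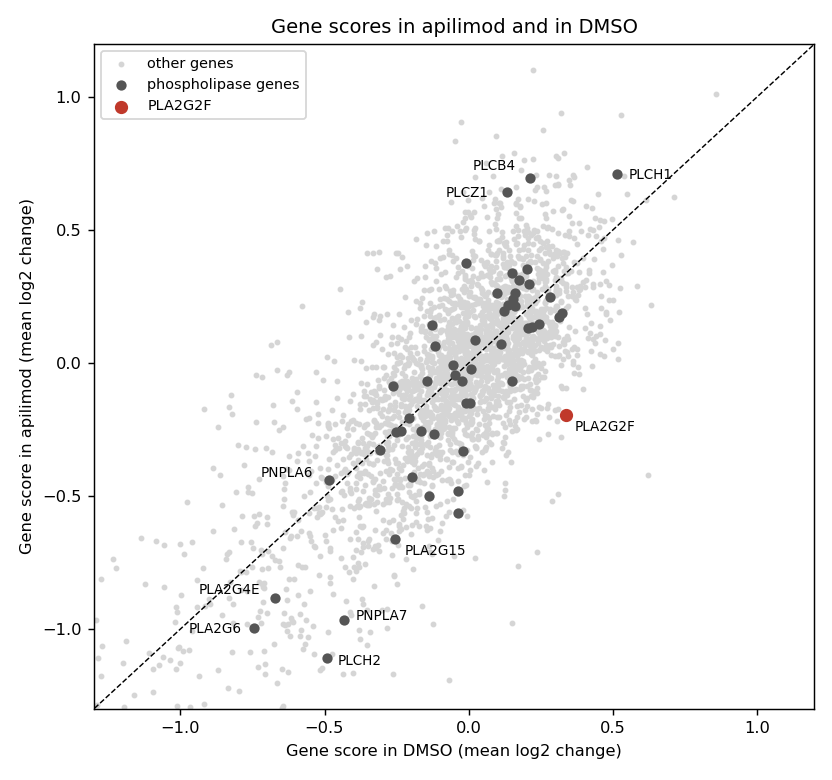
Gene scores (mean log2 change over the initial population) with apilimod on the vertical axis and DMSO on the horizontal axis; the dashed line marks equal scores, and both axes share the same initial population. Of 2969 genes, 154 lie outside the axes shown, none of them a phospholipase gene. PLA2G2F lies below the line at 0.34 with DMSO and -0.19 with apilimod, and PLCB4 and PLCZ1 lie above it.

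Other genes of phospholipid turnover were read from lists chosen by function. The list of acyltransferases held enzymes that rebuild what phospholipases A cut, and also enzymes of new glycerolipid synthesis such as AGPAT2. Of its 17 genes, 2 (AGPAT1 and AGPAT2) were called lower with apilimod and 5 with DMSO. AGPAT2, which makes phosphatidic acid on the route to new glycerolipids, scored -1.55 ± 0.68 with apilimod (n = 10 guides, exact rank-sum, adjusted p = 3.8e-12) and -1.21 ± 1.08 with DMSO (exact rank-sum, adjusted p = 4.3e-05), below every phospholipase gene in both arms. LPCAT3, the enzyme that returns polyunsaturated chains to lysophosphatidylcholine, was called lower with DMSO alone, at -0.19 ± 0.28 (n = 9 guides, exact rank-sum, adjusted p = 0.032). With apilimod LPCAT3 scored 0.06 ± 0.52 (exact rank-sum, adjusted p = 0.35). The difference between the arms, 0.25 ± 0.50, did not pass the test (exact rank-sum, adjusted p = 0.74).

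Of 20 enzymes that make or use inositol lipids and inositol phosphates, the substrates and products of phospholipase C, 6 were called lower with apilimod and 4 with DMSO. CDIPT, which synthesises phosphatidylinositol, scored -2.64 ± 2.19 with apilimod (n = 10 guides, exact rank-sum, adjusted p = 2.2e-12) and -3.51 ± 3.38 with DMSO (exact rank-sum, adjusted p = 7.8e-13). ITPK1, an inositol phosphate kinase, scored -2.08 ± 1.14 with apilimod (exact rank-sum, adjusted p = 1.1e-12, n = 10 guides) and -1.82 ± 0.83 with DMSO (exact rank-sum, adjusted p = 4.1e-13). ITPKC, which phosphorylates inositol trisphosphate, was called lower in the difference between the arms, with a ratio of -0.44 ± 0.35 (n = 9 guides, exact rank-sum, adjusted p = 0.049). That call lay at the edge of the threshold and was not put through the alternative settings. ITPKC was called in neither arm, at -0.01 ± 0.86 with apilimod (exact rank-sum, adjusted p = 0.59) and 0.43 ± 0.69 with DMSO (exact rank-sum, adjusted p = 0.13). The lowest phospholipase C gene, PLCH2, scored -1.11 with apilimod and -0.49 with DMSO.

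Phosphatidate phosphatases and diacylglycerol kinases, which interconvert the products of phospholipases D and C, had 2 of 21 genes called lower with apilimod and 2 lower and 1 higher with DMSO. Eicosanoid enzymes, which use the arachidonate that phospholipase A2 releases, had 3 of 24 called lower with apilimod and 4 with DMSO. ALOX15B, a lipoxygenase, was likewise called lower in the difference between the arms, with a ratio of -0.95 ± 0.84 (n = 10 guides, exact rank-sum, adjusted p = 0.018). ALOX15B scored -0.71 ± 0.74 with apilimod (exact rank-sum, adjusted p = 0.00096) and 0.24 ± 0.44 with DMSO (exact rank-sum, adjusted p = 0.79). This call was also not put through the alternative settings. Among 40 other lipid hydrolases, 8 were called lower with apilimod, and with DMSO 1 was lower and 1 higher. These shares were read beside 29.0% of all genes called lower with apilimod and 18.9% with DMSO.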

How the data were processed

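The deposited values were raw counts of reads per guide, which the authors obtained by trimming with cutadapt 4.1, aligning with Bowtie2 2.4.5 and counting with MAGeCK 0.5.9.5; the submitters' processing notes also name bcl2fastq and hg38. Counts listed once per library and once for the whole series were identical. From these counts, log2 changes used count plus 1 over the library total, guides with at least 100 initial counts and genes with at least 6 guides, following the study's methods. The rank-sum test was exact and two-sided against the 487 control guides, adjusted over 2969 genes (Python 3.11.15, numpy 2.4.6, pandas 2.3.3, scipy 1.17.1). It was tried on simulated data for each arm over the initial population, not for the difference between the arms. Simulated guides drifted as control guides drawn without regard to initial count. Alternatives changed the count minimum (30 or 300), the pseudocount (10), the null guides, the guide minimum (3), the scale, the mean for the median, and left out each gene's farthest guide. Named genes were those called in any comparison, the 3 lowest and 3 highest scores in each, PLA2G15, PLD3, PLD4, PLCG1 and PLCB3, and members that missed the filters. Others (among them PLCE1, PLA2G4A, PLA2G16, PLD1, PLD2 and LYPLAL1) were added after their values were seen, to complete the subfamilies. Members and lists were chosen with earlier results of these data known. Gene positions came from RefSeq GRCh38.p14, in which 52 of 52 members matched, 1 by an older symbol (PLA2G16).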

Additional observations from a re-analysis of the deposited data

Results flagged for a closer look

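PLA2G2F was singled out because its change over 14 days differed between apilimod and DMSO by a test of the difference itself. The log2 ratio of apilimod over DMSO was -0.53 (n = 9 guides, exact rank-sum test with Benjamini-Hochberg adjustment, adjusted p = 0.038). The call rested on 1 library per arm and ended under 5 of 9 alternative settings.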

How the results depend on the processing

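The calls depended most on the guides used as the null. With all guides against genes in place of the intergenic controls, 1 member (PLA2G4E) was called lower with apilimod in place of 17, 2 (PLCB4 and PLCH1) higher with apilimod in place of 0, 0 lower with DMSO in place of 7, and 0 lower in apilimod over DMSO in place of 1; 24 of 26 gene calls ended. Over all genes this setting gave 225 lower and 82 higher with apilimod, 222 lower and 50 higher with DMSO, and 7 lower for the difference, beside 862, 7, 560, 25 and 16. Leaving out each gene's guide farthest from its median ended 11 of 26 calls, with 0 members higher with DMSO and 0 lower in the difference. An initial minimum of 30 counts ended 5 of 26 and left 0 members higher with DMSO; a minimum of 300 ended 6 of 25. The difference between the arms had 0 members lower with a minimum of 300, with controls of at least 200 initial counts, and with scaling by the N-glycosylation list. Over all genes it gave 7 to 41 lower and 1 to 17 higher across the settings, and without the farthest guide 14 genes were higher with apilimod and 54 with DMSO. Members called lower numbered 12 to 17 with apilimod and 6 to 8 with DMSO under the other settings, and not always the same genes: PLA2G2F and PLCD4 entered with apilimod, and PLCB2, PLCD3, PNPLA5 and PNPLA7 with DMSO. A pseudocount of 10 or a minimum of 3 guides ended 0 calls, and 0 of 183 alternatives reversed a call relative to the null guides; 1 call, PLA2G4E with apilimod, held in all. The median over guides changes the score and not the test; for PLCH2 with DMSO it was 0.022, of opposite sign to the mean. The causes were not tested. No paired analysis was possible because each group had 1 library. Guides of low initial count limit precision, since a loss to 0 counts, as in PLCH2 from 179 counts, is only a bound.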
